A study of Drosophila melanogaster with 10 samples.

Results

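The genes described here are 207 genes of Drosophila melanogaster that the deposited array annotation ties to mRNA splicing by the spliceosome. They were chosen by the words "mRNA splicing, via spliceosome" in the Gene Ontology process column, among probe sets with 1 gene symbol. Symbols starting with eIF, Rp or Hs and pAbp were left out, which removed 3 genes. Each gene is read from its brightest probe set, and together they make up 207 of the 12401 named genes on the array. The process term itself is carried by 177 members, and 26 carry only the term for regulation of alternative splicing.

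The samples are cultures of DL1 cells, a Drosophila line in which genes are silenced by adding double-stranded RNA (dsRNA) to the medium. In the control RNAi group 5 cultures were bathed in dsRNA against renilla, a sequence foreign to the fly, and in the nbr RNAi group 5 cultures were bathed in dsRNA against nbr (CG9247). All cultures grew at the same temperature and were collected after 5 days, and the design text calls the replicates independent. Each culture gave 1 Affymetrix Drosophila_2 array, and the labels name no other genotype or agent. The line stands for 1 cell type in culture, and knockdown by RNAi leaves some of the target RNA.

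The spliceosome removes introns from precursor mRNA. It is built on each intron from small nuclear ribonucleoproteins (snRNPs), particles of a short RNA and proteins: the U1 snRNP binds the start of the intron, the U2 snRNP the branch site, and the U4/U6.U5 tri-snRNP then joins. Helicases and the Prp19 complex remodel this assembly into its active form, while SR proteins and hnRNP proteins influence which splice sites are used. Nbr (Nibbler), a ribonuclease, shortens microRNAs from their 3' ends. The series looks for genes that respond to loss of nbr, and here that comparison is read for the splicing machinery.

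The knockdown is visible on every array. The nbr level (FlyBase FBgn0032924) averaged 11.35 ± 0.13 over the 5 control RNAi arrays and 8.19 ± 0.49 over the 5 nbr RNAi arrays (SD), on the log2 scale of all levels given here. The log2 difference, always nbr RNAi minus control RNAi, was -3.16 (limma, Benjamini-Hochberg adjusted p = 1.46e-04). Of 12 markers of plasmatocytes, the main blood cells of the fly, 11 had a mean level of at least 4, the filter for testing. None of 10 muscle and none of 7 fat body markers did, and of 8 neuron markers only elav and of 6 germline markers only tud did. Array 5 of nbr RNAi stood apart, with correlations of 0.9768 to 0.9885 with the other arrays across probe sets, and values without it are given beside the results that it moves most. Small differences near 0 often changed size or sign without it.

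Of the 207 genes, 197 passed the filter and were tested together with all other probe sets, 7729 in all. None of the 197 passed limma's test at a Benjamini-Hochberg adjusted p under 0.05, and their lowest adjusted p was 0.849. Over all probe sets tested 2 passed (0.0259%), nbr among them. The median log2 difference was -0.0054 over the 197 genes and 0.0056 over all probe sets tested. Of the 197, 92 had a higher mean in nbr RNAi and 105 a lower one. An unadjusted p under 0.05 was reached by 6 genes as higher, against 4.15% of all probe sets tested, and by 9 as lower, against 1.72%. In all these are 7.61% of the spliceosome genes, beside 5.87% of all probe sets.

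The arrays bounded these differences closely. The median SD between control arrays was 0.077 for the 197 genes and 0.094 for all probe sets tested. The 95% interval of the log2 difference lay wholly within a 1.5-fold change in either direction for 189 genes (95.9%), beside 92.9% of all probe sets tested. For 161 of the 197 genes it lay within a 1.25-fold change, beside 5766 of all 7729 probe sets tested. An absolute log2 difference of at least 0.3 was seen in 6 genes: Inx7, aub and Sxl with higher means and Syp, CG11360 and CG17266 with lower ones. Over all probe sets 3.09% were of that size.

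**Figure D1:**
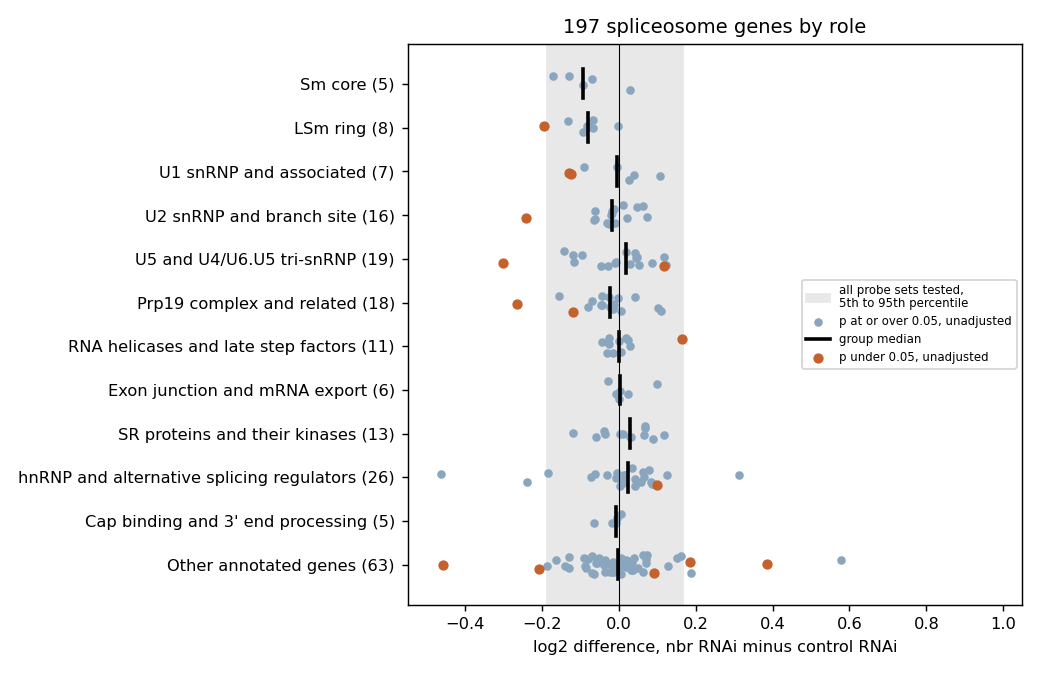
Log2 difference, nbr RNAi minus control RNAi, of the 197 spliceosome genes tested, with 1 point per gene, grouped by role with the number of genes in brackets. Black bars are group medians, orange points have an unadjusted p under 0.05 in limma, and the grey band spans -0.19 to 0.17, the 5th to 95th percentile of all probe sets tested; most points lie inside it.

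The Sm proteins form a ring around the snRNAs of the major snRNPs, and the related LSm proteins form rings on the U6 snRNA and, with LSm1, on mRNA in the cytoplasm. Of 13 such genes tested, 12 had a lower mean in nbr RNAi, beside 3641 of all 7729 probe sets tested. None of the 13 passed the test. Their median log2 difference was -0.084, and the highest and lowest were 0.029 (SmD3) and -0.20 (Lsm11). Both lists were joined after their values were seen. SmE read 13.32, 13.29, 13.38, 13.38 and 13.22 on control arrays 1 to 5 and 13.21, 13.16, 13.18, 13.26 and 13.31 on nbr RNAi arrays 1 to 5. The groups overlap, since nbr RNAi arrays 4 and 5 lie above control array 5. SmF read 13.31, 13.39, 13.46, 13.54 and 13.22 in control RNAi and 13.27, 13.15, 13.15, 13.29 and 13.42 in nbr RNAi. Its 3 lowest values were on nbr RNAi arrays 2 and 3 and control array 5.

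Lsm11 encodes a protein of the U7 snRNP, which processes histone mRNA 3' ends and is not part of the spliceosome. Its control arrays read 12.03, 11.88, 12.03, 12.14 and 12.07, and its nbr RNAi arrays 11.84, 11.74, 11.86, 11.68 and 12.06. Every nbr RNAi array but the fifth lay below all control arrays. The log2 difference was -0.20 with a 95% interval of -0.36 to -0.030, and an adjusted p of 0.849 in limma. CG6610, annotated to the U6 snRNP, was at -0.13 with an interval of -0.27 to 0.0084. SmB, a core protein of the same ring as SmE, was among the 5 members that varied most between control arrays, from 9.36 to 9.99, and was at -0.17 with an interval of -0.51 to 0.16, and at -0.28 without nbr RNAi array 5.

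Array 5 of nbr RNAi carried all 13 of these genes higher than the mean of nbr RNAi arrays 1 to 4, by a median of 0.20, against 0.066 over all probe sets tested. Without that array the median log2 difference of the 13 genes was -0.12 and 7 of them had an unadjusted p under 0.05, all lower, in a fit where 4.66% of all probe sets were lower at that level. LSm1 was then at -0.11, CG9344 at -0.13, SmE at -0.11, SmF at -0.17 and Lsm11 at -0.25. None passed in that fit either, where the lowest Benjamini-Hochberg adjusted p of any spliceosome gene was 0.468 in limma and 0.0388% of all probe sets passed. Over all spliceosome genes that fit put 20 lower and 7 higher at an unadjusted p under 0.05, the latter beside 5.37% of all probe sets. Groups that did not overlap were seen in 11 spliceosome genes, 9 of them lower, beside 3.13% of all probe sets. Over the 10 fits that left out 1 array, 11 or 12 of the 13 genes were lower.

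**Figure D2:**
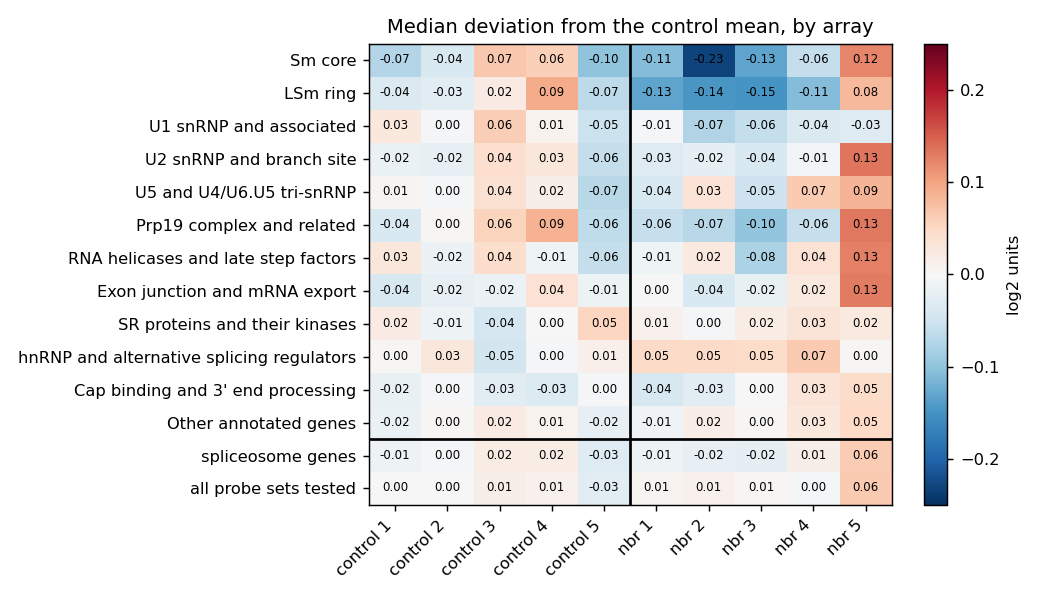
Median over the genes of each role of the deviation from the control mean, in log2 units, for each of the 10 arrays; the bottom rows give all spliceosome genes and all probe sets tested. The Sm and LSm rows are below 0 on nbr RNAi arrays 1 to 4, with LSm medians from -0.15 to -0.11, and above 0 on array 5, at 0.12 and 0.081.

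These 13 genes are short, and the difference moved with gene length among all members. The median genomic span, read from RefSeq's genes on the assembly Release 6 plus ISO1 MT, was 723 bp for the 13 genes and 2829 bp for the 197. Across the 197 genes the log2 difference had a Spearman's rho of 0.237 with span, and of 0.526 without nbr RNAi array 5. The level on nbr RNAi array 5 minus the mean of nbr RNAi arrays 1 to 4 had a rho of -0.597 with span. The rho values of 0.526 and -0.597 both use nbr RNAi arrays 1 to 4, with opposite signs, so opposite slopes are partly built in. The relation to span was not computed over all probe sets. These are descriptions across genes that share the same arrays, and genes are not independent replicates. The part of span in the lower means of the Sm and LSm genes was not tested.

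**Figure D3:**
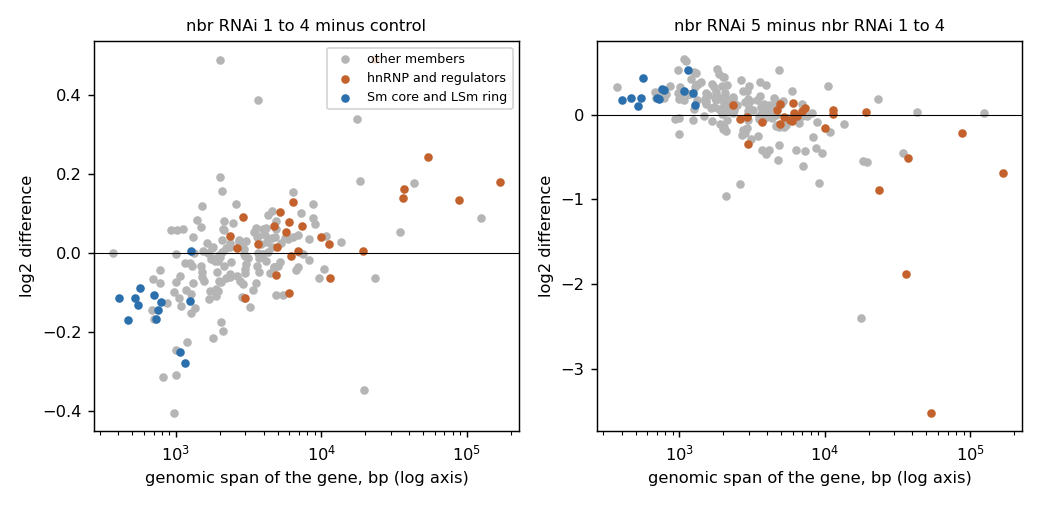
Log2 difference of each of the 197 genes against genomic span in bp on a log axis, for nbr RNAi arrays 1 to 4 against control RNAi (left) and for nbr RNAi array 5 against nbr RNAi arrays 1 to 4 (right). Sm and LSm genes (blue) lie at the short end and hnRNP and regulator genes (orange) reach the long end; points rise with span on the left (rho 0.526) and descend on the right (rho -0.597).

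Of 7 tested genes of the U1 snRNP and its partners, 2 had an unadjusted p under 0.05, both lower, beside 1.72% of all probe sets tested. Prp40, whose yeast counterpart links the U1 snRNP to the branch site, was the only spliceosome gene whose groups did not overlap, beside 0.970% of all probe sets tested, of which 0.220% were lower and 0.750% higher. It read 9.58, 9.61, 9.70, 9.59 and 9.57 in control RNAi and 9.55, 9.42, 9.35, 9.57 and 9.53 in nbr RNAi. The lowest control value and the highest nbr RNAi value both round to 9.57, so the separation is narrow. The log2 difference was -0.12 (95% interval -0.24 to -0.0069), and limma's adjusted p was 0.849. The exact permutation p was 0.00794 (2-sided, the lowest value possible with 252 splits). Any gene whose groups of 5 do not overlap has that permutation p, so it adds nothing to the separation by which Prp40 was named. CG3198, annotated to the U1 snRNP, was at -0.13 (interval -0.25 to -0.016) at a mean level of 4.38, close to the filter, and at -0.11 (-0.22 to 0.0045) without nbr RNAi array 5. The shared U1 and U2 protein gene snf was at -0.090 with an interval of -0.24 to 0.057.

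The U2 snRNP genes were near 0 apart from U2A, which encodes a protein of the U2 snRNP. U2A read 10.22, 10.28, 10.35, 10.51 and 10.16 in control RNAi and 10.11, 9.86, 9.91, 10.10 and 10.32 in nbr RNAi. Only nbr RNAi array 5 reached into the control range, and without it the groups did not overlap. The log2 difference was -0.24 (95% interval -0.45 to -0.032), and -0.31 without nbr RNAi array 5. Of 16 genes of this group, 11 were lower and 5 higher, with a median of -0.017. Sf3b1, the large subunit that holds the branch site, was at 0.074, Sf3b3 at -0.065 and the 3' splice site factors U2af50 and U2af38 at -0.011 and -0.031. Their 95% intervals all included 0, and that of U2af50 ran from -0.14 to 0.12. These 4 genes without nbr RNAi array 5 were at 0.039, -0.044, -0.053 and -0.096, in the same order.

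The U5 and tri-snRNP group held 10 genes with higher and 9 with lower means, at a median of 0.019. Prp8, the protein at the catalytic centre, was at 0.044 (95% interval -0.14 to 0.23), and the helicase gene Brr2 at -0.12 (interval -0.39 to 0.15). On nbr RNAi array 5 both were at their lowest, at 11.61 for Prp8 and 11.64 for Brr2. Without that array Prp8 was at 0.12 (interval 0.022 to 0.23), one of the 7 higher genes of that fit with an unadjusted p under 0.05, and Brr2 was at 0.0021 (interval -0.13 to 0.14). CG17266, annotated as a peptidyl-prolyl isomerase of the snRNP complex, had the lowest difference of the group, -0.30 with an interval of -0.59 to -0.015. It read 9.04, 9.08, 9.10, 9.35 and 8.96 in control RNAi and 8.67, 8.66, 8.52, 8.93 and 9.23 in nbr RNAi. Arrays 1 to 4 of nbr RNAi lay below every control array and array 5 lay above 4 of them. Prp4k, a kinase that acts on tri-snRNP proteins in yeast and mammals, was at 0.12 with an interval of 0.0078 to 0.23. It read 10.92, 10.87, 10.92, 10.74 and 10.97 in control RNAi and 11.01, 10.99, 10.96, 10.96 and 11.09 in nbr RNAi, and 3 of the nbr RNAi arrays lay above all control arrays. Its interval without nbr RNAi array 5 was -0.012 to 0.21.

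In the Prp19 complex and related factors, which activate the spliceosome, 14 of 18 genes had lower means, with a median of -0.024. The median without nbr RNAi array 5 was -0.072, with 15 lower. Cypl, a cyclophilin annotated to the precatalytic and the catalytic step 2 spliceosome, read 9.88, 9.90, 10.04, 10.14 and 9.81 in control RNAi and 9.74, 9.59, 9.63, 9.60 and 9.89 in nbr RNAi. Only nbr RNAi array 5 overlapped the controls. Its log2 difference was -0.26 (95% interval -0.44 to -0.092), and -0.31 without that array. The gene fand was at -0.12 (interval -0.22 to -0.021), with 12.55, 12.49, 12.62, 12.60 and 12.48 in control RNAi and 12.44, 12.51, 12.37, 12.43 and 12.41 in nbr RNAi. Array 2 of nbr RNAi was the only one within the control range. The scaffold gene Prp19 itself was at 0.041 and Cdc5 at -0.079. This group also had its highest median on nbr RNAi array 5, at 0.13, against -0.099 to -0.057 on the other nbr RNAi arrays. The median over all probe sets tested was highest there too, at 0.065, against -0.0040 to 0.011 on the other nbr RNAi arrays.

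Among 11 helicases and late factors, Slu7 stood farthest from 0. Slu7 helps choose the 3' splice site in the second step of splicing. It read 9.88, 9.91, 10.01, 9.81 and 9.83 in control RNAi and 10.03, 10.19, 9.94, 10.16 and 9.93 in nbr RNAi. Control array 3 lay above nbr RNAi arrays 3 and 5. The log2 difference was 0.16 with a 95% interval of 0.019 to 0.31, and the other 10 genes ran from -0.044 (abs) to 0.029 (l(2)37Cb). Without nbr RNAi array 5 Slu7 was at 0.19, and the other 10 ran from -0.11 (Prp5) to 0.061 (pea). Of the 11 genes, 6 were higher and 5 lower with all arrays, and 2 higher and 9 lower without that array. Rm62, a DEAD-box helicase gene with one of the 5 brightest probe sets, was at -0.014 with an interval of -0.092 to 0.064.

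**Figure D4:**
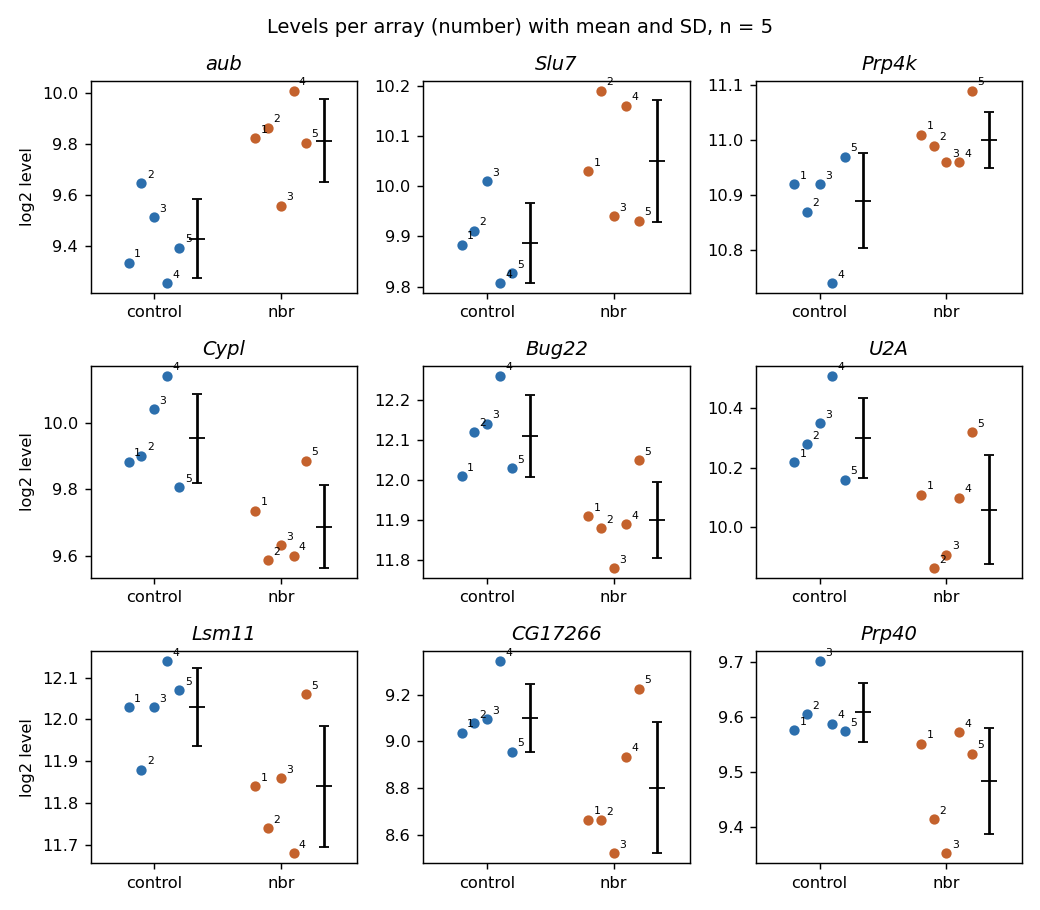
Log2 levels of 9 spliceosome genes on each array (points numbered by array; blue control RNAi, orange nbr RNAi), with the mean and SD of each group (n = 5) at the right of its points. Each panel has its own axis, which does not start at 0. In Cypl, Bug22, U2A, Lsm11 and CG17266 nbr RNAi array 5 is the highest of its group.

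The exon junction complex, which the spliceosome leaves on joined exons, and its export partners were close to 0. Of 6 genes, mago was at 0.023, tsu at -0.028 and Acn at 0.0015, with a second Acn probe set at -0.11. Ref1, the export adaptor also called Aly, was at 0.10 with a 95% interval of -0.0040 to 0.20. Its second probe set was at -0.064, and its dimmest lay under the filter at a mean of 3.71. Leaving out nbr RNAi array 5 put mago at -0.026, tsu at -0.077 and Acn at 0.052. The cap-binding genes Cbp20 and Cbp80, whose complex marks the 5' end of new transcripts, were at -0.0054 and -0.017, and Pabp2 and Cpsf6, of 3' end processing, at 0.0061 and -0.0074. Other probe sets were at 0.18 for Cbp80 and at -0.082 and 0.013 for Pabp2. Ars2, placed in the same group, was at -0.066 with an interval of -0.30 to 0.16. It read 11.96 on nbr RNAi array 5, and without that array it was at 0.040.

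SR proteins bind exonic enhancers and recruit the U1 and U2 snRNPs. None of the 13 genes of this group had an unadjusted p under 0.05, and 9 had higher means, or 7 without nbr RNAi array 5. SF2 was at 0.064 (95% interval -0.060 to 0.19), B52 at 0.031, SC35 at 0.011, x16 at 0.090 and Srp54 at 0.069. Dimmer B52 probe sets above the filter were at -0.083 and -0.18. Without that array SF2 was at 0.031, SC35 at -0.033 and x16 at 0.035. The sex determination factors tra and tra2, which act together on dsx RNA, were at -0.12 and -0.035, and at -0.075 and -0.062 without it. The kinase gene Doa, whose product phosphorylates SR proteins, read 13.92 to 14.08 on the control arrays and 13.59 on nbr RNAi array 5, against 13.99 to 14.08 on the other nbr RNAi arrays. Its log2 difference was -0.038, and 0.052 without array 5.

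The hnRNP proteins coat new transcripts and, with other regulators, often repress or shift splice sites. Of 26 genes tested, 18 had higher means, with a median of 0.025, and none passed. Rox8, related to mammalian TIA proteins, was at 0.099 (95% interval 7.1e-04 to 0.20), with 12.48, 12.58, 12.48, 12.43 and 12.61 in control RNAi and 12.60, 12.67, 12.62, 12.59 and 12.59 in nbr RNAi. Control array 5 lay within the nbr RNAi range. The general hnRNP genes were close to 0, with Hrb87F at 0.0040 (interval -0.078 to 0.086), Hrb27C at 0.035, Hrb98DE at 0.064 and sqd at -0.062. Second probe sets had the other sign for Hrb98DE, at -0.099, and for sqd, at 0.036. Of the Sxl cofactors, fl(2)d was at -0.0077, vir at -0.0051 and nito at 0.083. The quaking related gene qkr58E-1 was at -0.18 with an interval of -0.38 to 0.0089, and at -0.11 without nbr RNAi array 5. Without nbr RNAi array 5, 21 of the 26 were higher, and over the fits that left out 1 array 15 to 21 were.

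Syp and Imp, RNA-binding proteins known for opposite gradients in fly neural stem cells, were both low on a single array. Syp read 10.27, 9.61, 9.14, 10.07 and 10.08 in control RNAi and 9.93, 10.34, 10.05, 9.99 and 6.55 in nbr RNAi. Its second probe set read 8.86 to 9.42 in control RNAi and 9.38, 9.37, 9.26, 8.78 and 7.62 in nbr RNAi. Imp read 13.25, 13.11, 12.89, 13.12 and 13.17 in control RNAi and 13.29, 13.24, 13.27, 13.19 and 11.36 in nbr RNAi. On nbr RNAi array 5 the log2 level minus the mean of nbr RNAi arrays 1 to 4 was therefore -3.53 for Syp and -1.89 for Imp. Only ymp, annotated to both spliceosome stages, shared a gap over 1 unit, at 5.55 on that array against 7.50 to 8.36, and no member was over 1 unit higher there. With all arrays the log2 differences were -0.46 for Syp (95% interval -1.91 to 0.99) and -0.24 for Imp (-0.99 to 0.51). Without nbr RNAi array 5 they were 0.24 (-0.23 to 0.72) and 0.14 (-0.0096 to 0.29), so the sign of both turned on that array. In a bulk measurement, fewer cells that express a gene and less RNA per cell cannot be told apart.

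**Figure D5:**
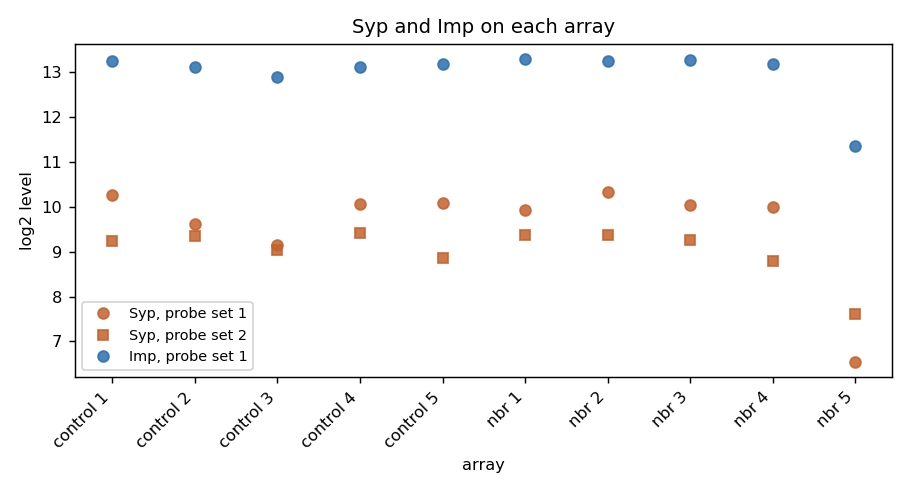
Log2 levels of both Syp probe sets and the brighter Imp probe set on each of the 10 arrays. All 3 are lowest on nbr RNAi array 5, at 6.55 and 7.62 for Syp and 11.36 for Imp.

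Sxl, the sex-lethal splicing regulator, varied more between cultures than most members. It read 6.43, 7.05, 6.59, 7.06 and 7.40 in control RNAi and 6.90, 8.17, 6.98, 7.55 and 6.51 in nbr RNAi. The log2 difference of 0.31 had a 95% interval of -0.36 to 0.98, and it ran from 0.075 to 0.49 over the fits without 1 array. Its dimmer probe set, at a mean of 3.16, was at 0.19. The bru1 probe set lay under the filter at a mean of 2.31, with 4.16 on nbr RNAi array 2 and at most 2.51 elsewhere.

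The remaining 72 members were in none of the role lists, and several have main functions outside splicing. Of these, 63 were tested, with 31 higher and 32 lower and a median of -0.0016. The smallest p of all members belonged to aub, the Piwi family protein of the piRNA pathway, whose file annotation places it in the precatalytic and catalytic step 2 spliceosome. It read 9.33, 9.65, 9.51, 9.25 and 9.39 in control RNAi and 9.82, 9.87, 9.56, 10.01 and 9.81 in nbr RNAi. Every nbr RNAi array but the third lay above all control arrays. The log2 difference was 0.39 (95% interval 0.18 to 0.59), a 1.31-fold higher level, with p = 0.0159 in the exact permutation test and an adjusted p of 0.849 in limma. It stayed between 0.34 and 0.45 when each array was left out. The permutation p and this range reuse the values by which aub was picked, so they are no separate support.

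Bug22, listed in the files as CG5343 and annotated to both spliceosome stages, was at -0.21 with a 95% interval of -0.35 to -0.070. It read 12.01, 12.12, 12.14, 12.26 and 12.03 in control RNAi and 11.91, 11.88, 11.78, 11.89 and 12.05 in nbr RNAi, so that only nbr RNAi array 5 reached the control range. The gap junction gene Inx7, annotated to regulation of alternative splicing, had the highest difference of the set, 0.58, with an interval of -0.091 to 1.25. Its values ran from 6.98 to 8.16 in control RNAi and from 7.14 to 8.54 in nbr RNAi and overlapped widely. CG11360, annotated as an RNA-binding zinc protein, was at -0.46 (interval -0.85 to -0.063), and its second probe set at -0.41. Without nbr RNAi array 5 they were at -0.35 (interval -0.71 to 0.017) and -0.13. Its control arrays read 7.96, 8.10, 7.81, 8.31 and 7.63 and its nbr RNAi arrays 7.62, 7.66, 7.96, 7.22 and 7.06. The transcription factor gene dsx, a well known target of regulated splicing, was at 0.18 with an interval of 0.026 to 0.34. Its second probe set lay under the filter at a mean of 2.43. Which of the sex-specific forms of dsx each probe set reads was not examined. Rack1, a ribosome-bound scaffold gene with the brightest probe set of all members, was at -0.0016.

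Splicing genes that the fixed lists name but the annotation term does not cover were read in the same fit. Of 23 such genes, 19 were tested and none passed or had an unadjusted p under 0.05, with a median of -0.034. The exon junction genes btz and RnpS1 were at -0.057 and -0.053, the SR protein kinase gene SRPK at 0.019, the hnRNP genes glo and rump at -0.034 and -0.027, and elav at -0.16.

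The members also divide by the cell component and evidence in their annotation. Annotation to the precatalytic spliceosome was carried by 136 members and to the catalytic step 2 spliceosome by 112. Their median log2 differences over the tested genes were -0.010 and -0.0053. The shares with an unadjusted p under 0.05 were 6.87% and 6.36%, beside 5.87% of all probe sets tested. Of 131 tested precatalytic genes 3 were higher and 6 lower, and of 110 step 2 genes 3 and 4, beside 4.15% and 1.72% of all probe sets. Without nbr RNAi array 5, 14 precatalytic and 12 step 2 genes were lower and 2 of each higher. In that fit 4.66% of all probe sets were lower and 5.37% higher. The 56 tested genes with evidence from a mutant phenotype had a share of 7.14%, and the 144 with an annotation inferred by a curator one of 6.25%. Without nbr RNAi array 5, 3 of the 56 were lower and 3 higher, and 15 of the 144 lower and 2 higher.

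Of the 207 members, 10 lay under the filter and give no limit on changes. They include exu, a maternal RNA localisation gene, LS2, a gene related to U2af50, and tbrd-1, with means from 1.94 to 2.66. The 5 dimmest probe sets, of CG11674, CG6209, CG17764, CG7255 and CG7907, had means of 1.94 to 2.08. The member just inside the filter was CG3198 at 4.38 and the one just outside was exu at 2.66. The probe sets with the highest signal were those of Rack1, lost, Hrb87F, Rm62 and Doa, and brightness does not rank transcripts, since probe sets respond differently.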

How the data were processed

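The arrays were hybridised with biotin-labelled cDNA amplified from total RNA with the Ovation Pico WTA system, per the labels' protocols. The authors deposited 1 log2 level for each probe set and array, and the submitters' processing notes name GCRMA and Partek, without versions. GCRMA includes quantile normalization, which hides any shift shared by all genes. The authors' deposited table also holds a signed fold change, a d score, a p-value and a q-value in percent, per the file headers, which name the contrast tmr against Renilla. In the authors' deposited table the lowest q-value of a tested member is 13.9%, that of aub.

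Symbols were updated through RefSeq (Release 6 plus ISO1 MT), by accession for 206 members and by symbol for 1. Of 272 probe sets with the term, 13 with several symbols and 10 with none were left out. Genomic spans come from that assembly. For the array annotation the sources used here give no build, so no coordinates are printed, and no sequences were used.

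Probe sets other than the 183 controls with a mean of at least 4 were tested, 2-sided and with no covariate, in limma 3.58.1 (lmFit, then eBayes; R 4.3.3), with Benjamini-Hochberg adjustment over 7729. The fit was tested on simulated data. Tables used Python 3.11.15 and pandas 2.3.3.

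Members and lists were chosen with earlier results of these data known. Of the 135 members with a role, 106 were placed by lists written before this fit and 29 afterwards, and 6 wrong entries of those lists were dropped. Genes were named by rule: nbr, 2 per role list with the smallest p (the rule allowed up to 4), non-overlapping groups, the 5 brightest, the 5 dimmest and the 5 most variable probe sets, and those whose probe sets differ in sign by over 0.3. The last part named none, and 1 gene that the rule names is not reported here. Others (aub, Bug22, CG11360, dsx, Imp and members given as examples of a role) were chosen after values were seen. Alternatives were other filters, scalings, weights, moderation, probe set choices and member rules, a block and leaving out arrays.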

Additional observations from a re-analysis of the deposited data

Results flagged for a closer look

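Single arrays lay apart in 10 of 100 groups of 5 arrays examined with Dixon's test at its 95% critical value. Chance alone flags about 1 in 20 independent groups. The groups here share the same arrays, and some genes were chosen after values were seen, so the count cannot be compared with that rate. Array 5 of nbr RNAi was the separate array in 8 of the 10, with Syp at 6.55, Imp at 11.36, Doa at 13.59 and SmB at 9.89. On the same array the median deviation from the control mean was 0.081 for the LSm genes, 0.13 for the Prp19 group (0.1325), 0.13 for the U2 group (0.1334) and 0.065 for all probe sets tested. The remaining ones were Prp40 on control array 3, at 9.70 against 9.57 to 9.61, and Rm62 on nbr RNAi array 3, at 14.13 against 14.20 to 14.23.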

How the results depend on the processing

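No spliceosome gene passed under any alternative run, and the lowest adjusted p over all of them was 0.261. The nbr difference stayed past the threshold, between -3.319 and -2.998 when each array was left out. Over those fits the probe sets called ran from 1 to 3, the members with an unadjusted p under 0.05 from 6 to 27, and the members with separate groups from 1 to 11. Without nbr RNAi array 5 the 27 members were 7 higher and 20 lower and 11 members had separate groups. In that fit 5.37% of all probe sets were higher and 4.66% lower under 0.05, beside 4.15% and 1.72% with all arrays. Separate groups were seen in 3.13% of all probe sets, beside 0.970% with all arrays, so these shares rose over all probe sets too. For the other fits no such share is given, so whether their counts are particular to the members was not tested. Without control array 4 or 3 the count of members under 0.05 was 6 or 8. Separate groups numbered 2, 4, 2 and 7 without control arrays 1, 2, 3 and 5 and 4, 4 and 3 without nbr RNAi arrays 2, 3 and 4. Median centring and array weights each called 4 probe sets, as did an adjusted p under 0.10. Array weights put 25 members under 0.05. With nbr RNAi array 5 and control array 3 both left out, 1 probe set was called and 13 members had separate groups. A replicate block, by array number, left 1 probe set called and 7 members were under 0.05. The numbers share no source in the labels, and same-numbered arrays correlated from -0.465 to 0.184, with 1 of 5 best with its own number. The causes were not tested.

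The sign turned for 9 of 35 named genes, all at adjusted p values that did not pass. With quantile normalization Hrb87F was at -0.0082 and Rack1 at 0.00066, and with median centring Hrb87F at -0.0020. With array weights mago was at -0.0066, Doa at 0.035, Rack1 at 0.0065, Syp at 0.16 and Imp at 0.094. With those 2 arrays left out, mago was at -0.034, abs at 0.0017, Doa at 0.037, Rack1 at 0.011, Syp at 0.070 and Imp at 0.085. Averaging its probe sets, 1 of them under the filter, put Ref1 at -0.048. Leaving out each array in turn, the values ran from -0.072 to 0.052 for Doa, -0.0098 to 0.021 for Hrb87F, -0.34 to 0.14 for Imp, -0.022 to 0.015 for Rack1, -0.024 to 0.0019 for Rm62, -0.71 to 0.24 for Syp and -0.026 to 0.059 for mago.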
